A study of Mus musculus with 10 samples.

Results

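The genes described here carry out DNA replication and mitosis. The module was drawn up by gene name and held 60 genes: 23 that copy DNA, 24 that act in mitosis, and 13 cyclins, regulators and markers of cycling cells. Of these, 59 had a probe set annotated to that gene alone among the 18193 genes of the arrays, and the brightest probe set of each gene over all 10 arrays was used. Ccnb1, which encodes cyclin B1, had none and was not analysed here. The tissue was epididymal white fat, the visceral fat pad beside the epididymis, of male C57BL/6J mice that were 8 weeks old at the start. Over 8 weeks of feeding, the chow group (5 mice) received a normal chow, CRF-1, and the high-fat group (5 mice) a diet with 60% fat. Each mouse gave 1 Affymetrix array, and the p-values rest on the spread among these mice. Levels are quantile-normalized log2 intensities of a probe set, and a change is the high-fat mean minus the chow mean on that scale, with the standard error (SE) from limma.

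A dividing cell first licenses its replication origins by loading the MCM helicase with Cdc6 and Cdt1. The helicase is then switched on with the GINS complex, and the DNA is copied by polymerases held on the PCNA ring. After replication, Cdk1 with its B cyclins drives the cell into mitosis, the spindle checkpoint holds the chromosomes until they are attached, and the anaphase-promoting complex then lets them part. Replication genes are largely switched on by E2F factors late in G1, and mitotic genes later, by complexes bound at CHR and CCAAT elements. Most mature adipocytes do not divide, whereas progenitors, endothelial cells and macrophages of adipose tissue can.

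The samples were fat, but the 2 groups differed in more than diet. Adipocyte markers lay among the brightest genes (median percentile of level 99.2 for 10 of them), with Adipoq at 12.93 and 13.15, Fabp4 at 13.59 and 13.60 and Lpl at 13.06 and 13.29 (chow and high-fat means). The macrophage list had mean levels from 6.20 to 7.16 on chow and from 9.80 to 10.48 on the high-fat diet; 10 of its 12 genes rose and none fell. Epithelial (7 of 7), epididymal (5 of 7) and testis (3 of 10) genes fell: the mean of the epithelial genes ran from 6.96 to 10.42 on chow and from 4.09 to 4.77 on the high-fat diet, that of the epididymal genes from 8.01 to 12.41 and from 3.31 to 6.22, and that of the testis genes from 4.36 to 7.92 and from 2.90 to 4.50. Of all genes 12.9% rose and 13.1% fell. Chow arrays 1 and 2 held the most epithelial signal (10.42 and 10.32, against 8.44 at most in the other chow arrays). The ratio of 5' to 3' signal for actin control probes, a measure of RNA integrity, lay from 0.272 to 0.456 on chow and from 0.557 to 0.643 on the high-fat diet. No marker gene of these lists and no member lay at the floor throughout a group. In bulk tissue, more cells of a type and more RNA per cell cannot be told apart.

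Mitotic genes rose without exception, while replication genes divided into those that rose and those that did not. All 23 measured mitotic genes passed the test upward (limma, adjusted p under 0.05 over all genes), with a median change of 2.02 and a range from 0.70 to 2.84. Of the 23 replication genes, 13 rose and none fell; changes ran from -0.33 to 2.75 around a median of 1.07, and at an unadjusted p under 0.05, 15 were higher and 1 was lower. Of the 13 cyclins, regulators and markers, 8 rose and 1 fell. Among all 18193 genes 12.9% rose and 13.1% fell, and the median change was -0.037. In 20 of 23 mitotic and 10 of 23 replication genes, every high-fat array lay above every chow array, against 11.5% of all genes.

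**Figure D1:**
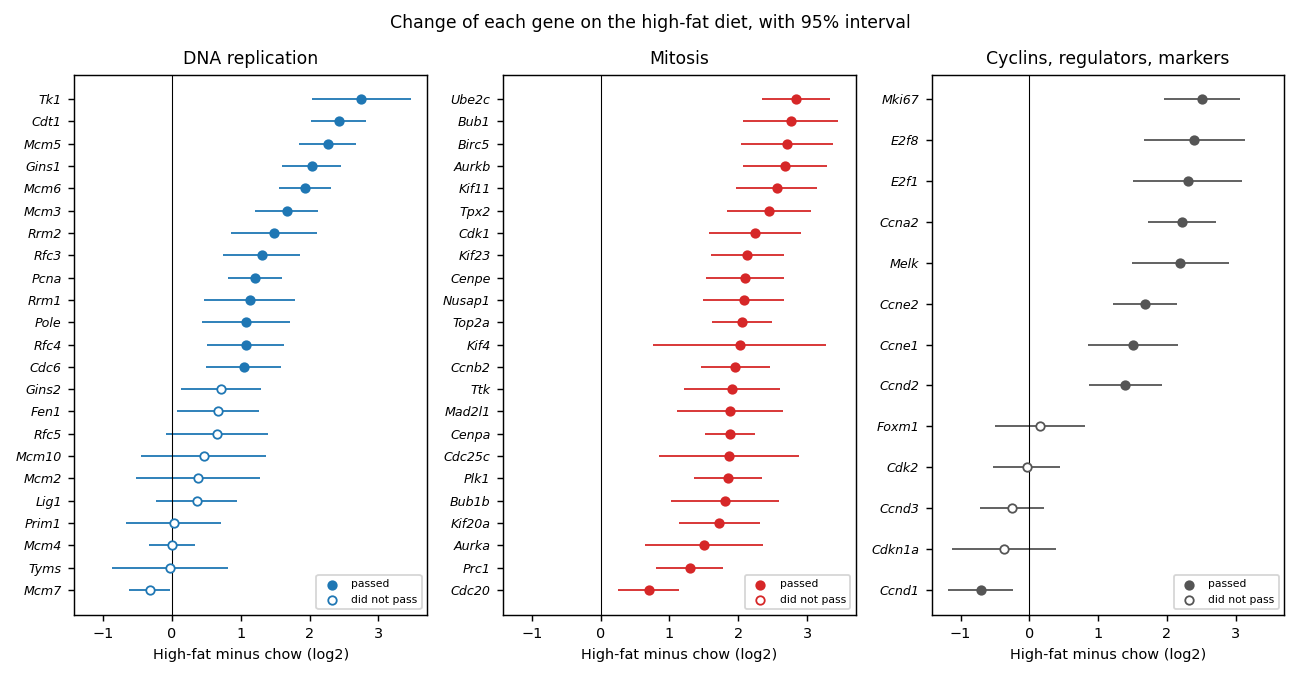
Change of each gene on the log2 scale, high-fat diet minus chow, with its 95% confidence interval from limma (5 mice per group); filled points passed an adjusted p under 0.05. All 23 mitotic genes are filled and lie between 0.70 and 2.84, whereas 10 of 23 replication genes are open and lie between -0.33 and 0.71.

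The mean change of the mitotic genes exceeded that of the replication genes by 0.99. This difference describes the chosen genes and was not tested. The macrophage markers and the actin ratio were higher in the same 5 arrays, and their part in these changes was not tested. On the log2(value + 16) scale, which damps dim probe sets, the medians were 1.54 for mitotic and 0.75 for replication genes, and 23 and 13 of them rose. With only probe sets free of possible cross-matches, 22 mitotic and 16 replication genes rose.

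The promoters of both groups are shown for members that rose, since they carry different sequence words. RefSeq promoter windows (build GRCm38.p6, 250 bases before to 50 after a transcription start) were matched by symbol for 46 of the 59 genes. They were searched on both strands for E2F-type words (the word TTCCCGC or one of its variants, which were first TTGGCGC, secondly TTCGCGC and lastly TTGCCGC), for CHR-type words (the sequence TTTGAA or the alternative TTTAAA) and for the word CCAAT. An E2F-type word was found in 13 of 19 replication genes and 1 of 19 mitotic genes, against 10.9% of all 27025 genes in the table and 2311 of the 14452 genes tested on the arrays that had a window. A CHR-type word was found in 16 of 19 mitotic genes and 5 of 19 replication genes, against 30.6% of all genes and 24.7% of those on the arrays. CCAAT was found in 16 of 19 mitotic and 11 of 19 replication genes, against 41.1% and 42.0%, and both a CHR-type word and CCAAT in 15 mitotic and 3 replication genes, against 13.4% of all genes. A gene with several windows was counted if any of them held the word. A match is a description of the letters and was not tested as a binding site.

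**Figure D2:**
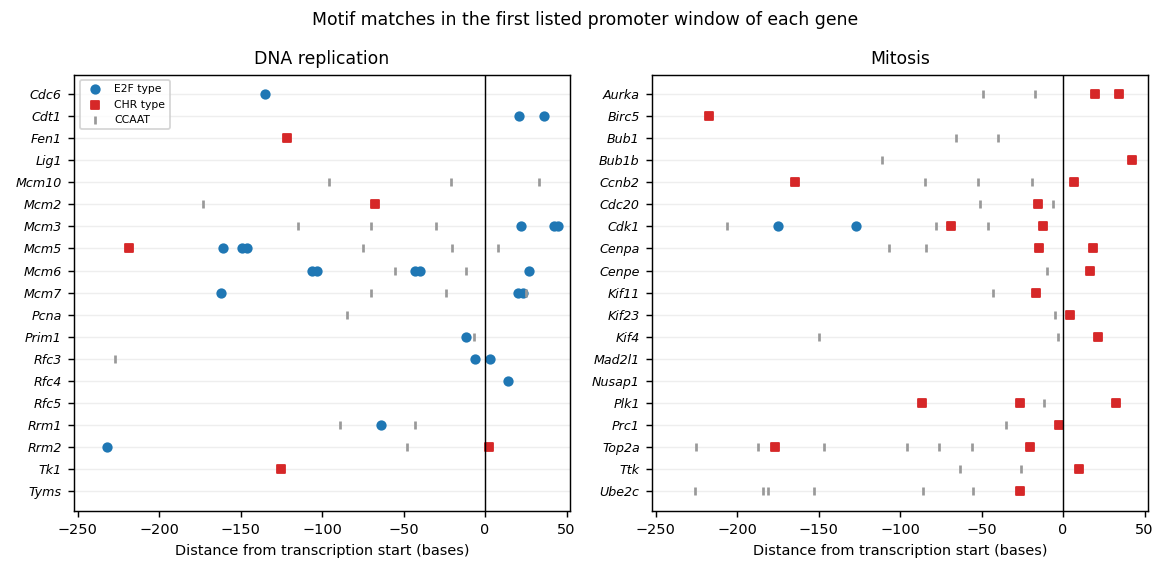
Distance of each word from the transcription start in bases, in the first listed promoter window of each replication gene (left) and mitotic gene (right) with a RefSeq window; circles are E2F-type, squares CHR-type and ticks CCAAT words. In the mitotic genes 18 of 23 CHR-type words lie within 50 bases of the start, and in the replication genes 14 of 23 E2F-type words do. Overlapping words are counted separately.

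The replication genes Mcm6 (chr1:128359656-128359955, minus strand) and Mcm5 (chr8:75109259-75109558, plus strand) were chosen as the risen gene with most E2F-type words and one of a tied next pair, and the mitotic genes Top2a (chr11:99024140-99024439, minus strand) and Ube2c (chr2:164769679-164769978, plus strand) as those with the most CHR-type and CCAAT words. Cdk1 (chr10:69352863-69353162, minus strand) was the mitotic gene that held all 3 kinds. Each is printed 5′ to 3′ along the gene, with every matched word of any kind in capitals; words that overlap run together, as 17 matches did and 116 did not in all members.
Mcm6: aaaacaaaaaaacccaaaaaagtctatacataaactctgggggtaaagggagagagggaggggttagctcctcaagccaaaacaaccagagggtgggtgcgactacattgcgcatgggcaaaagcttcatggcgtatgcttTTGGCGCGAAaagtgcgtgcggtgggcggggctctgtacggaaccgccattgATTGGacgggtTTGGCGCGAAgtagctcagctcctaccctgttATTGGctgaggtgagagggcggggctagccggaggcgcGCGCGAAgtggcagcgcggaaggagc
Mcm5: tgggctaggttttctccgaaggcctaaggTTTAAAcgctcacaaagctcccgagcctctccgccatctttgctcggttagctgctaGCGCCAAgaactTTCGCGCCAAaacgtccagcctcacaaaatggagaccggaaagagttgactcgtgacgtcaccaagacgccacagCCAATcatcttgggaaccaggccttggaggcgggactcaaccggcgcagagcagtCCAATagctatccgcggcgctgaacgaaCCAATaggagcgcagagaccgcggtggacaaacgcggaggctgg
Top2a: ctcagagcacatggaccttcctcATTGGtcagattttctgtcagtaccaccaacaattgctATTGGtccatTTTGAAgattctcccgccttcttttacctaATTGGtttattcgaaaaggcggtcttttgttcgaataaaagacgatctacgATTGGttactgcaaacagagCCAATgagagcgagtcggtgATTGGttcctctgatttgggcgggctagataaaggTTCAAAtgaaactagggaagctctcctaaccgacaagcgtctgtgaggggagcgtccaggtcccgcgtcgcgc
Ube2c: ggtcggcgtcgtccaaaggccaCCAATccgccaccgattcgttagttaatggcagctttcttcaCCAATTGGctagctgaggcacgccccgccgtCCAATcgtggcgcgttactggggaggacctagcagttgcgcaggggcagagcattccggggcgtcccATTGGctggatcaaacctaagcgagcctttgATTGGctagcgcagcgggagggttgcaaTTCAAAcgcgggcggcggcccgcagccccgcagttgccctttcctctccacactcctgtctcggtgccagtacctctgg
Cdk1: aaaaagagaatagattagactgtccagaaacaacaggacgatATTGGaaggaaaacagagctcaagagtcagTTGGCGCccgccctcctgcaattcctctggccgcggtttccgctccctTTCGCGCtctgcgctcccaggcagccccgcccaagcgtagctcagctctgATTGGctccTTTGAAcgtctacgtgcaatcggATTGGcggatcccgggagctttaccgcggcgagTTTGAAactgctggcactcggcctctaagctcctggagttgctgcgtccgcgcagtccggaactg

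Mcm6 thus held 5 E2F-type words, no CHR-type word and 2 CCAAT words, and Top2a held no E2F-type word, 2 CHR-type words and 6 CCAAT words. Overlapping words were counted separately, so that 1 stretch of letters could count as more than 1 word, as it did in Mcm6. Not all members followed the pattern of their group. Tk1, Mcm10, Pcna, Rfc5, Tyms and Mcm2 had no E2F-type word in their windows, and of these Tk1 and Pcna rose. Mcm7, Lig1, Prim1 and Fen1 held an E2F-type word in a window and did not pass. Whether a word went with a rise was not tested. The mitotic genes Bub1, Mad2l1 and Nusap1 had no CHR-type word and rose by 2.76, 1.88 and 2.08.

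The licensing and helicase genes were split. Of the subunits of the MCM ring, Mcm3, Mcm5 and Mcm6 rose and Mcm2, Mcm4 and Mcm7 did not pass. The loading factors Cdt1 and Cdc6 and the GINS subunit Gins1 also rose, so that 6 of 11 genes rose. Cdt1, which brings the helicase to origins, measured 6.38, 6.19, 6.62, 6.75 and 6.49 on chow and 8.34, 8.87, 9.25, 8.90 and 9.19 on the high-fat diet. All 5 high-fat arrays lay well above the chow arrays, and the rise was 2.43 (SE 0.18, adjusted p = 1.14e-05), or 5.37-fold. Mcm5, a helicase subunit, measured 6.26, 6.19, 5.84, 6.58 and 5.90 on chow and 7.95, 8.47, 8.74, 8.29 and 8.64 on the high-fat diet. It rose by 2.26 (SE 0.19, adjusted p = 2.33e-05), with no overlap between the groups. For Gins1, which helps activate the helicase, the levels were 4.57, 5.04, 4.26, 4.73 and 4.56 on chow and 6.38, 6.67, 6.87, 6.59 and 6.80 on the high-fat diet. Again the groups stood apart, with a rise of 2.03 (SE 0.20, adjusted p = 5.31e-05). Mcm6 rose by 1.93 (SE 0.17, adjusted p = 3.17e-05), but with the mean of its 3 probe sets, 1 of them dim, it did not pass (0.82, adjusted p = 0.0751). Mcm3 rose by 1.67 (SE 0.21, adjusted p = 0.000241) and Cdc6 by 1.04 (SE 0.25, adjusted p = 0.0105).

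The other licensing genes did not pass the test in all 10 arrays, and for several the chow arrays disagreed with each other. Mcm2 measured 7.13, 7.69, 5.80, 5.69 and 5.58 on chow and 6.25, 6.62, 7.15, 6.86 and 6.88 on the high-fat diet. Chow arrays 1 and 2 were as high as or higher than most high-fat arrays, whereas chow arrays 3 to 5 lay below all of them, and the difference was 0.38 (SE 0.41, adjusted p = 0.550). Mcm10, which joins the helicase at firing origins, had the opposite pattern, with 4.07, 4.37, 5.85, 6.09 and 5.90 on chow and 5.25, 5.93, 5.84, 5.74 and 5.83 on the high-fat diet; chow arrays 1 and 2 were the lowest of all and the difference was 0.46 (SE 0.41, adjusted p = 0.459). Gins2 differed by 0.71 (SE 0.26, adjusted p = 0.0694). Mcm4 was close to level, at 0.0012 (SE 0.15, adjusted p = 0.996), with a 95% interval from -0.33 to 0.34. Mcm7 was the lowest of the replication genes in change. Its levels were 9.08, 8.93, 9.55, 9.25 and 9.31 on chow and 8.68, 9.03, 9.06, 8.74 and 8.98 on the high-fat diet, and the difference of -0.33 (SE 0.13, adjusted p = 0.101) did not pass and was 0.12 once array medians were centred. The other 3 probe sets of Mcm7 differed by -0.16, 0.19 and 0.18 with all 10 arrays, and none passed. A second, dimmer probe set of Mcm2 rose by 1.10 (SE 0.29, adjusted p = 0.0218), one of Mcm4 by 0.47 (SE 0.13, adjusted p = 0.0251), and one of Gins2 by 1.85 (SE 0.51, adjusted p = 0.0283) (adjusted over all probe sets), so that the split between MCM subunits rested in part on the probe set.

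Of the 8 genes of DNA synthesis, 4 rose, by 1.07 to 1.30. These were the sliding clamp Pcna, the clamp loader subunits Rfc3 and Rfc4 and the polymerase epsilon gene Pole; the median over all 8 was 0.87. Pcna was bright in every array, with 9.61, 9.76, 9.66, 9.37 and 9.37 on chow and 10.38, 10.68, 11.11, 10.41 and 11.21 on the high-fat diet. The chow arrays were close together and all high-fat arrays lay above them, with a rise of 1.21 (SE 0.18, adjusted p = 0.000733). Rfc3 measured 4.45, 4.60, 4.03, 4.46 and 3.97 on chow and 5.03, 5.80, 5.89, 5.35 and 5.95 on the high-fat diet, a rise of 1.30 (SE 0.26, adjusted p = 0.00387) without overlap. Pole measured 4.47, 5.67, 4.35, 4.55 and 4.85 on chow and 5.59, 6.12, 5.55, 5.67 and 6.33 on the high-fat diet; chow array 2 lay within the high-fat range, and the rise was 1.08 (SE 0.29, adjusted p = 0.0198). Rfc4 rose by 1.07 (SE 0.25, adjusted p = 0.0105). The clamp loader subunit Rfc5 differed by 0.66 (SE 0.34, adjusted p = 0.182), the flap nuclease Fen1 by 0.67 (SE 0.27, adjusted p = 0.0950), the ligase Lig1 by 0.36 (SE 0.27, adjusted p = 0.361) and the primase Prim1 by 0.024 (SE 0.32, adjusted p = 0.966), and none of these passed. Another probe set of Fen1 rose by 1.61 (SE 0.36, adjusted p = 0.00997). Without high-fat array 2 or 5, Pole no longer passed.

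Of the 4 genes that supply deoxynucleotides, 3 rose. The salvage kinase Tk1 measured 4.69, 4.59, 3.08, 4.16 and 4.69 on chow and 6.58, 7.19, 7.31, 6.69 and 7.20 on the high-fat diet. The lowest high-fat array lay further above the highest chow array than the chow arrays lay from each other, and the rise was 2.75 (SE 0.33, adjusted p = 0.000178), or 6.75-fold. Tk1 was dim on chow, and its change on the log2(value + 16) scale was 2.01, below those of Cdt1 (2.23) and Mcm5 (2.03). Both subunits of ribonucleotide reductase rose. Rrm2 measured 7.64, 7.02, 6.46, 6.57 and 6.37 on chow and 7.59, 8.27, 8.75, 8.21 and 8.66 on the high-fat diet, with chow array 1 just above high-fat array 1, and rose by 1.48 (SE 0.28, adjusted p = 0.00329). Rrm1 measured 7.46, 7.76, 6.86, 6.30 and 6.34 on chow and 7.50, 8.10, 8.33, 8.00 and 8.42 on the high-fat diet, with chow array 2 above high-fat array 1, and rose by 1.13 (SE 0.30, adjusted p = 0.0187). Rrm1 no longer passed without high-fat array 5 (adjusted p = 0.0505). Tyms, which makes thymidylate, was dim, with 3.15, 2.50, 3.12, 2.68 and 3.02 on chow and 3.53, 3.32, 2.59, 1.92 and 2.98 on the high-fat diet. Its groups overlapped fully and the difference was -0.026 (SE 0.38, adjusted p = 0.969), with a 95% interval from -0.87 to 0.82; its other 3 probe sets were dimmer and did not pass either.

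The calls of several replication genes depended on chow arrays 1 and 2. In 9 replication genes, Mcm2, Gins2, Rfc4, Rfc5, Prim1, Lig1, Fen1, Rrm1 and Rrm2, both of these arrays lay above the other 3 chow arrays. In 4 replication genes both lay below the other 3. This was not particular to replication genes, since both arrays also lay above the other 3 in 7 of 23 mitotic genes. The mean of the mitotic genes was 4.61 and 4.92 in chow arrays 1 and 2, against 4.23 to 4.42 in the others. When chow arrays 1 and 2 were left out, 18 replication genes rose and 1 fell. The 13 that had risen rose again, with Mcm2 (1.06, adjusted p = 0.00191), Rfc5 (1.22, adjusted p = 0.000486), Gins2 (1.09, adjusted p = 0.00106), Fen1 (0.97, adjusted p = 0.000973) and Lig1 (0.65, adjusted p = 0.0303) in addition. Those 5 added genes were among the 9 in which both arrays lay above the others, so leaving the arrays out had to raise their changes. Mcm7 fell by 0.47 (adjusted p = 0.00902) on its brightest probe set. The median change of the replication genes was then 1.27, and 18.5% of all genes rose. Prim1, Mcm4, Mcm10 and Tyms did not pass in that fit either. Chow arrays 1 and 2 had the highest epithelial marker levels of the chow arrays. The mean of their endothelial markers was 7.75 at most, against 9.39 to 9.77 in the others. For adipocyte markers it was 11 and 10.02, against 11.49 to 12.07. The actin ratio was 0.456 and 0.368, against 0.272 to 0.307. Macrophage markers separated them less (6.20 and 6.35, against 6.36 to 7.16), since chow arrays 2 and 3 were nearly level. The part of these measures in the members' values was not tested. All 23 mitotic genes rose with and without chow arrays 1 and 2.

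**Figure D3:**
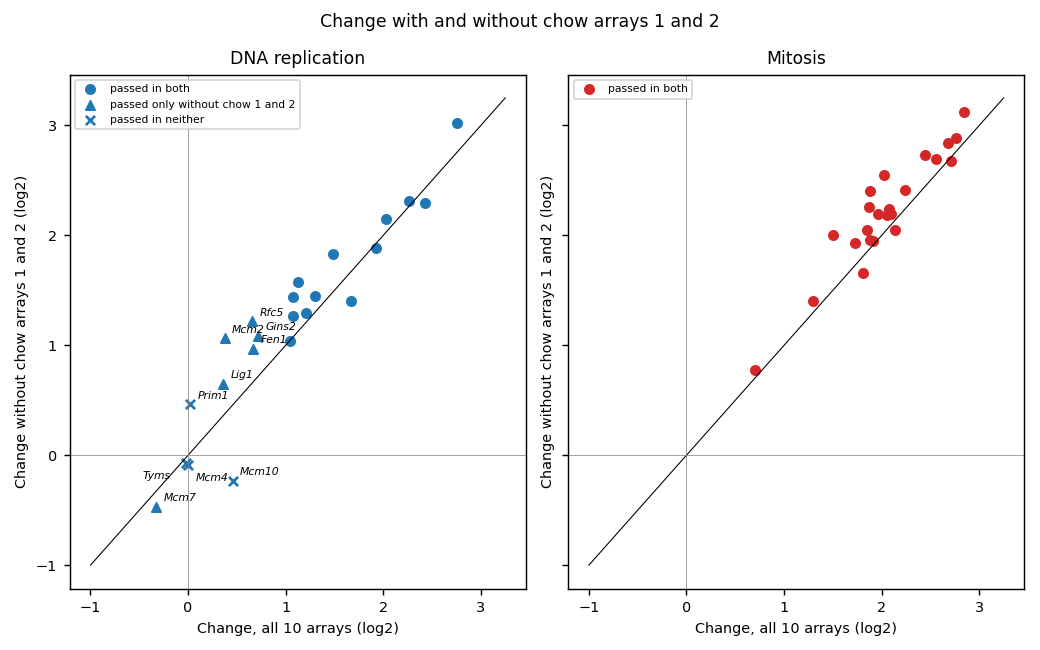
Change of each replication gene (left) and mitotic gene (right) on the log2 scale with all 10 arrays (horizontal) and without chow arrays 1 and 2 (vertical); the line marks equal values and the symbol shows whether the adjusted p was under 0.05. Mcm2, Rfc5, Gins2, Fen1 and Lig1 pass upward and Mcm7 downward only without those arrays, whereas every mitotic gene passes in both.

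Genes that bring a cell into mitosis rose together. All 6 that were measured passed, with changes from 1.50 to 2.45. Tpx2, which activates Aurora A on the spindle, measured 4.18, 4.73, 3.75, 3.30 and 4.20 on chow and 6.16, 6.65, 6.57, 6.29 and 6.72 on the high-fat diet. It rose by 2.45 (SE 0.28, adjusted p = 0.000134), and the groups were apart. Cdk1, the kinase that starts mitosis, measured 5.66, 5.40, 4.34, 5.23 and 5.73 on chow and 6.80, 7.89, 7.78, 7.33 and 7.78 on the high-fat diet; the lowest high-fat array, array 1, was still above the highest chow array. Its rise was 2.24 (SE 0.30, adjusted p = 0.000390), or 4.73-fold. Ccnb2, a B cyclin partner of Cdk1, measured 5.19, 5.52, 4.59, 4.74 and 4.98 on chow and 6.44, 6.91, 7.22, 6.98 and 7.27 on the high-fat diet and rose by 1.96 (SE 0.23, adjusted p = 0.000170) without overlap. The kinase Plk1 rose by 1.85 (SE 0.23, adjusted p = 0.000225), and the phosphatase Cdc25c, which activates Cdk1, by 1.87 (SE 0.46, adjusted p = 0.0127). Cdc25c was among the dimmest members, and its change on the log2(value + 16) scale was 0.59. The kinase Aurka rose by 1.50 (SE 0.39, adjusted p = 0.0160); it reached 6.08 in chow array 2, within the high-fat range of 5.56 to 6.33, and the other 4 chow arrays lay between 4.03 and 4.59.

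The spindle checkpoint and the machinery of anaphase rose in full, 6 of 6 genes. Ube2c, the ubiquitin-conjugating enzyme of the anaphase-promoting complex, measured 5.24, 5.79, 5.01, 4.85 and 4.53 on chow and 7.84, 8.12, 7.91, 7.65 and 8.09 on the high-fat diet. Its high-fat arrays lay within 0.47 of each other and all above chow, and the rise was 2.84 (SE 0.23, adjusted p = 1.6e-05), or 7.16-fold. For the checkpoint kinase Bub1, levels were 3.13, 4.53, 3.47, 3.33 and 3.79 on chow and 5.92, 6.36, 6.80, 6.12 and 6.86 on the high-fat diet. No array overlapped, and it rose by 2.76 (SE 0.31, adjusted p = 0.000135); it was dim on chow, and its change on the log2(value + 16) scale was 1.81. Ttk, the kinase that recruits the checkpoint proteins to kinetochores, measured 3.14, 3.87, 2.85, 3.64 and 3.73 on chow and 4.69, 5.40, 5.69, 5.13 and 5.88 on the high-fat diet and rose by 1.91 (SE 0.32, adjusted p = 0.00151). The checkpoint proteins Mad2l1 and Bub1b rose by 1.88 (SE 0.35, adjusted p = 0.00281) and 1.80 (SE 0.36, adjusted p = 0.00397). Cdc20, which activates the anaphase-promoting complex and is the target of the checkpoint, rose least, by 0.70 (SE 0.20, adjusted p = 0.0255). Its chow array 2 (7.57) lay within the high-fat range of 7.34 to 7.86. Cdc20 lost its call without high-fat array 2, 3 or 5 or chow array 3 or 4 (adjusted p from 0.0505 to 0.0661), and with probe sets free of possible cross-matches (0.0923).

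Genes of chromosomes, spindle and cytokinesis also rose in full, 11 of 11, with changes from 1.29 to 2.71. Birc5, the survivin subunit of the chromosomal passenger complex, measured 4.09, 4.87, 3.75, 5.07 and 4.81 on chow and 6.70, 7.34, 7.50, 6.88 and 7.69 on the high-fat diet. It rose by 2.71 (SE 0.30, adjusted p = 0.000123). Aurkb, the kinase of the same complex, measured 3.33, 3.90, 3.26, 2.78 and 3.60 on chow and 5.58, 6.43, 5.87, 6.18 and 6.23 on the high-fat diet and rose by 2.68 (SE 0.28, adjusted p = 7.85e-05). In both genes the groups were apart by more than the range of the high-fat arrays. The motor Kif11, which pushes the spindle poles apart, measured 3.34, 3.73, 3.06, 3.72 and 2.82 on chow and 5.54, 5.70, 6.12, 5.87 and 6.23 on the high-fat diet and rose by 2.56 (SE 0.27, adjusted p = 8.46e-05). Aurkb and Kif11 were dim on chow, with changes of 1.64 and 1.52 on the log2(value + 16) scale. The other motors rose too: Kif23, of the central spindle, by 2.13 (SE 0.24, adjusted p = 0.000123), Kif20a by 1.73 (SE 0.27, adjusted p = 0.000943) and the chromosome motor Kif4 by 2.02 (SE 0.57, adjusted p = 0.0238). Kif4 varied most on chow, from 1.95 to 4.69, and its highest chow array lay above high-fat array 1 (4.58). Without high-fat array 2, 3, 4 or 5 it did not pass, and its adjusted p reached 0.0596 at most.

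Cenpa, the histone that marks centromeres, had chow levels from 5.24 to 5.73 and high-fat levels from 7.05 to 7.58, and rose by 1.88 (SE 0.17, adjusted p = 3.08e-05). The kinetochore motor Cenpe rose by 2.10 (SE 0.26, adjusted p = 0.000226). Top2a, the topoisomerase that untangles chromosomes, averaged 5.85 ± 0.32 in chow arrays and 7.90 ± 0.30 in high-fat arrays (SD, n = 5), and rose by 2.06 (SE 0.20, adjusted p = 5.5e-05). The microtubule binders Nusap1 and Prc1 rose by 2.08 (SE 0.27, adjusted p = 0.000303) and 1.29 (SE 0.22, adjusted p = 0.00193). With the mean of all probe sets of a gene, which gives weight to dim ones, Cenpa, Aurka and Ttk did not pass (adjusted p = 0.164, 0.146 and 0.0569).

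**Figure D4:**
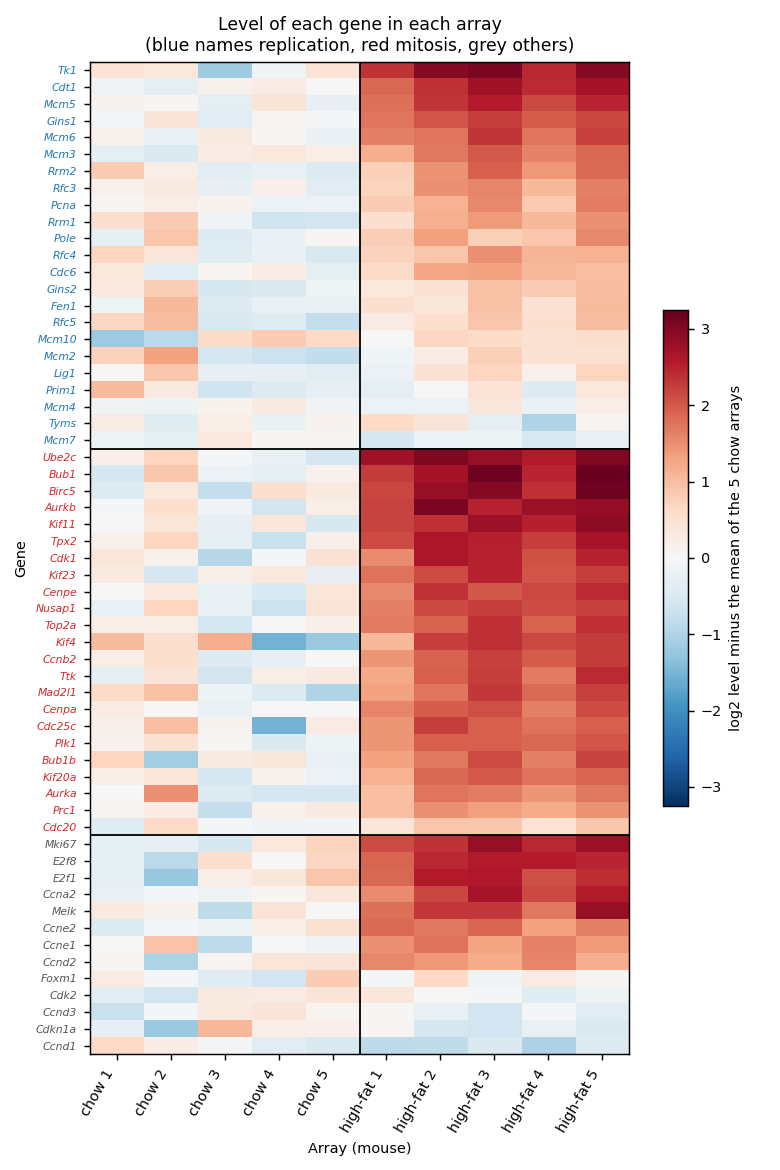
Level of each gene (rows) in each array (columns) as log2 level minus the mean of the 5 chow arrays; red is higher and blue lower, and names are coloured by group. High-fat array 1 is paler than the other high-fat arrays in most mitotic rows, and chow arrays 1 and 2 are redder than the other chow arrays in replication rows such as Mcm2 and Rfc5.

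The E and A cyclins rose, and the D cyclins differed among themselves. The cyclins of the G1 to S step and of S phase rose: Ccne1 by 1.51 (SE 0.29, adjusted p = 0.00379), Ccne2 by 1.68 (SE 0.21, adjusted p = 0.000281) and Ccna2, the cyclin A gene, by 2.22 (SE 0.22, adjusted p = 6.49e-05). The 3 D cyclins, which couple growth signals to Cdk4 and Cdk6, did not move together. Ccnd2 measured 10.29, 9.25, 10.31, 10.62 and 10.64 on chow and 11.79, 11.63, 11.44, 11.82 and 11.41 on the high-fat diet and rose by 1.40 (SE 0.24, adjusted p = 0.00190), and its other 6 probe sets rose as well. Ccnd1 measured 10.33, 9.92, 9.61, 9.33 and 9.19 on chow and 8.83, 8.86, 9.21, 8.67 and 9.26 on the high-fat diet and fell by 0.71 (SE 0.22, adjusted p = 0.0329). Chow arrays 1 and 2 were the highest of all for Ccnd1, chow array 5 (9.19) lay within the high-fat range while chow arrays 3 and 4 lay above it, and the call was lost in 13 of 22 alternatives, among them the values as deposited, and without chow arrays 1 and 2 (difference -0.41, adjusted p = 0.0583). Ccnd3 measured 8.13, 8.78, 9.14, 9.26 and 8.95 on chow and 8.89, 8.62, 8.22, 8.78 and 8.50 on the high-fat diet and differed by -0.25 (SE 0.21, adjusted p = 0.432). Its sign turned without normalization between arrays (0.039) and once array medians were centred (0.17), whereas it fell by 0.51 without chow arrays 1 and 2 (adjusted p = 0.0189) and by 0.47 with array weights (adjusted p = 0.0411).

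Cdk2, the partner of the E and A cyclins, and its inhibitor Cdkn1a (p21) did not pass. Cdk2 measured 7.37, 7.11, 8.02, 8.00 and 8.16 on chow and 8.09, 7.75, 7.69, 7.35 and 7.57 on the high-fat diet, and the difference was -0.040 (SE 0.22, adjusted p = 0.919) with a 95% interval from -0.53 to 0.45; it turned positive in several alternatives, such as the unnormalized values (0.18). Cdkn1a, a target of p53 that stops the cycle, measured 9.69, 8.76, 11.04, 10.19 and 10.14 on chow and 10.02, 9.40, 9.35, 9.73 and 9.50 on the high-fat diet. Chow arrays 2 and 3 were the lowest and the highest of all 10 arrays, and the difference was -0.37 (SE 0.34, adjusted p = 0.485). Without chow arrays 1 and 2 Cdkn1a fell by 0.86 (adjusted p = 0.0108), and once array medians were centred the difference was 0.095. Of 15 other genes that p53 is known to induce, 4 rose and 1 fell, against 12.9% and 13.1% of all genes. Ccng1 (1.12), Gadd45a (1.04), Bbc3 (0.83) and Zmat3 (0.72) rose and Trp53inp1 had a change of -0.69.

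Of the transcription factors of the cycle, E2f1 and E2f8 rose and Foxm1 did not pass. E2f1, an activator of replication genes, measured 4.43, 3.49, 4.93, 5.08 and 5.62 on chow and 6.57, 7.29, 7.30, 6.81 and 7.11 on the high-fat diet and rose by 2.30 (SE 0.36, adjusted p = 0.000984). E2f8, an E2F repressor that is itself induced in S phase, measured 2.87, 2.32, 3.71, 3.17 and 3.86 on chow and 5.09, 5.63, 5.76, 5.77 and 5.65 on the high-fat diet and rose by 2.40 (SE 0.33, adjusted p = 0.000491). In both the groups were apart. A dimmer probe set of E2f8 differed by -0.14, and with the mean of both E2f8 did not pass (1.13, adjusted p = 0.0839). Foxm1, which drives mitotic genes, measured 5.36, 5.04, 4.70, 4.49 and 5.94 on chow and 5.06, 5.76, 4.99, 5.36 and 5.14 on the high-fat diet. Its groups overlapped with a difference of 0.16 (SE 0.30, adjusted p = 0.747), and its other 3 probe sets were dim and did not pass. Mki67, the marker of cycling cells, measured 5.55, 5.56, 5.32, 6.18 and 6.56 on chow and 7.96, 8.18, 8.66, 8.29 and 8.61 on the high-fat diet. It rose by 2.51 (SE 0.25, adjusted p = 6.07e-05), or 5.69-fold, with no overlap, and the kinase Melk rose by 2.19 (SE 0.32, adjusted p = 0.000653).

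Other genes of the pathway, taken from lists drawn up by function, were counted in the same way, against 12.9% higher and 13.1% lower among all genes. Of 38 other mitotic genes 31 rose and 1 fell, with a median change of 1.62; of 26 other replication genes 10 rose and none fell, around a median of 0.49 (12 higher and none lower at an unadjusted p under 0.05). The condensin gene Ncapg (3.77) and the kinetochore genes Ndc80 (3.71), Spc25 (2.59) and, of the chromosomal passenger complex, Cdca8 (2.55) led the mitotic list. Ncapg and Ndc80 were dim on chow, at 1.36 and 1.69, and their changes on the log2(value + 16) scale were 1.36 and 1.51. Pttg1, the securin gene, was the one that fell, by 0.88 (adjusted p = 0.000136). Among replication genes the hemimethylated DNA binder Uhrf1 rose by 2.04, the deoxycytidine kinase Dck by 1.91, geminin (Gmnn), the inhibitor of Cdt1, by 1.66 and the helicase component Cdc45 by 1.36.

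Inhibitors of the G1 kinases were among the genes that rose. Of 19 other genes of G1 control 10 rose and 2 fell, against 12.9% and 13.1% of all genes. The INK4 inhibitor gene Cdkn2a rose by 2.95 but was dim (chow mean 1.02; 0.76 on the log2(value + 16) scale), Cdkn2b rose by 1.61, E2f2 rose by 1.10, and the kinase gene Cdk6 rose too. The p27 gene Cdkn1b and E2f5 fell, with changes of -0.76 and -0.89.

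In the high-fat group, array 1 was the lowest of the 5 in 44 of 59 members, among them 22 of 23 mitotic and 18 of 23 replication genes, and high-fat arrays 3 and 5 were the highest in 24 and 19 members. The mean of the mitotic genes was 6.07, 6.64, 6.73, 6.43 and 6.79 in high-fat arrays 1 to 5, and that of the replication genes 6.89, 7.27, 7.51, 7.09 and 7.49. The mean of the macrophage markers was 9.80, 10.08, 10.38, 10.12 and 10.48 in the same arrays, lowest in array 1 and highest in array 5. The stromal progenitor list had the same ends, with 8.82, 9.35, 9.65, 9.56 and 9.83, while the epididymal list was highest in array 1 (6.22) and lowest in array 5 (3.31). The adipocyte list, with 12.03, 11.95, 11.56, 11.96 and 11.57, was also highest in array 1 and was lowest in array 3. The actin ratio was lowest in array 1 (0.557, against 0.591 to 0.643 in the other high-fat arrays). The part of these lists and of the actin ratio in the members' values was not tested. With 5 mice per group no correlation was computed. The chow arrays varied more: the SD was larger on chow for 49 of 59 members, with a median of 0.490 against 0.311.

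**Figure D5:**
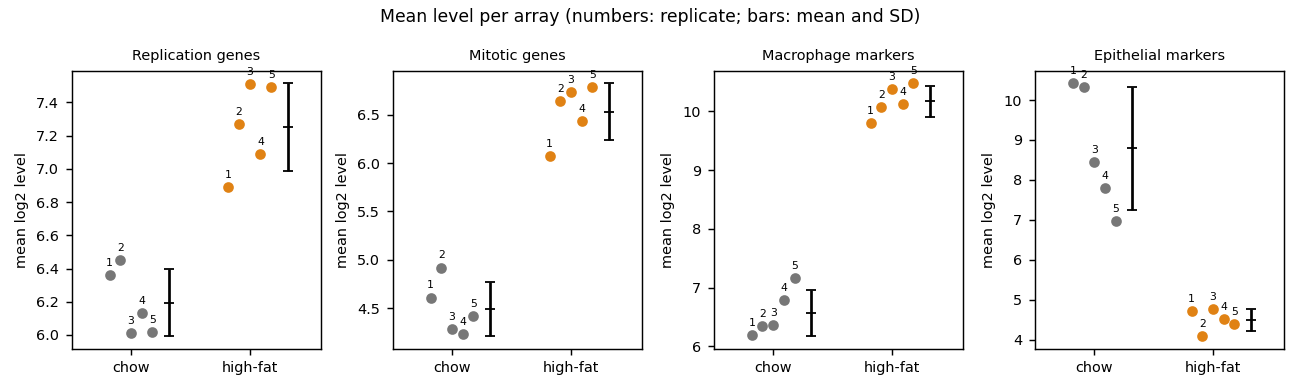
Mean log2 level per array of the 23 replication genes, the 23 mitotic genes, the 12 macrophage markers and the 7 epithelial markers; numbers are replicates and bars show the mean and SD of 5 arrays. The replication mean runs from 6.01 to 6.45 on chow and from 6.89 to 7.51 on the high-fat diet, and the mitotic mean from 4.23 to 4.92 and from 6.07 to 6.79.

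Of the other cell types of fat that could divide, T, NK and B cell genes rose in 4 of 10. Stromal progenitor genes rose in 2 of 7 (Lum by 3.08 and Pi16 by 1.70). At an unadjusted p under 0.05, 3 of them were higher and 1, Dpp4 (-1.08), was lower. The brightest of that list, Dcn (0.17), Pdgfrb (0.18) and Cd34 (0.55), did not pass. Endothelial genes rose in none of 8 (0 at an unadjusted p under 0.05). The endothelial mean was split on chow, at 7.75 at most in arrays 1 and 2 and 9.39 to 9.77 in arrays 3 to 5. High-fat arrays lay between, from 8.19 to 8.77. With chow so divided, the lack of calls does not show that endothelial genes were level. The 12 macrophage genes had a median change of 3.60, and Lyz2 (3.08), Csf1r (2.07) and Gpnmb (4.86), 3 of the brightest, rose. Sycp3, a gene of meiotic chromosomes on the testis list, rose by 1.98, while Odf1, Ccna1 and Tnp2 of that list fell. The cell type that carried the rise of the replication and mitotic genes was not measured in these samples.

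The probe sets of a member mostly shared their direction. There were 132 probe sets for the 59 members, and 42 members had more than 1. Of the 73 probe sets that were not used, 62 had the sign of the one used and 0 passed with the opposite sign (limma, adjusted over all probe sets). Of 30 called members with other probe sets, 23 had at least 1 that was called the same way. Of 12 members that were not called and had other probe sets, 4 had one that was called higher. These were the replication genes Mcm2, Mcm4, Gins2 and Fen1, so their lack of a call rested on the probe set.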

How the data were processed

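Affymetrix arrays of epididymal fat from 10 mice were analysed, 5 per diet, grouped by sample title. The authors deposited 1 linear intensity per probe set and array (45101 probe sets); how the probe sets were summarised and scaled is not given in the sources used here. Array medians ran from 17.9 to 27.4. Intensities were raised to the 5th percentile of all values (0.658), log2 transformed and quantile normalized, since array medians differed by 0.613. Probe sets with exactly 1 symbol (34958) were named from the platform annotation; 932 had several and 9211 were not listed. The brightest probe set stood for each of 18193 genes, with no filter on dim genes and the 64 controls left out. Genes were tested with limma 3.58.1 (R 4.3.3; lmFit, eBayes with a trend) with p-values adjusted by Benjamini-Hochberg across the 18193 genes, at 0.05. On data simulated for the 18193 genes of this comparison, with changed genes above the median level, 62% of 100 changes of 1 (log2) and 90% of 100 changes of 2 were recovered, with 6 false calls among 158. In the data 4717 genes were called, far more than were changed in the simulation. The mitotic genes had a median percentile of level of 42.5. These rates therefore do not give the recovery for the members. The members, gene lists, words searched and alternatives were chosen with earlier results of these data known. Every member was to be named, with per-array values for the 3 largest called changes of each role and for those running against their group, up to 4 called genes of each other list, and up to 3 of the brightest markers. The alternatives were other scalings, variance priors, array weights, a filter on dim genes, other probe sets, floors and log scales, a replicate block, and arrays left out. The number of arrays limits the precision.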

Additional observations from a re-analysis of the deposited data

Results flagged for a closer look

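In groups of 5 arrays, 1 array stood far from the other 4 in 12 of the 124 groups examined (59 members and 3 group means on each diet). For a single group, chance gives about 1 in 20. The 124 groups share the same arrays and the means are made of the members, so the count cannot be set against that rate. High-fat array 1 was low for 6 genes: Mcm10 at 5.25 (the next lowest array 5.74), Plk1 at 5.87 (6.32), Kif20a at 5.10 (5.73), Kif4 at 4.58 (5.64), Nusap1 at 6.57 (7.04) and E2f8 at 5.09 (5.63). Chow array 2 was high for Lig1 at 7.45 (the next highest 6.55), Fen1 at 8.32 (7.12) and Aurka at 6.08 (4.59), and low for Ccnd2 at 9.25 (10.3). Chow array 3 was low for Top2a at 5.29 (5.85) and Prc1 at 4.61 (5.45).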

How the results depend on the processing

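Of 1268 values of single members under 22 alternatives, 1163 kept their direction and side of the threshold, 34 lost the call and 35 gained one. Of the 45 called members, 34 were called in every alternative they entered, and none changed sign. The count of members that rose ran from 40 to 48 with single arrays left out; that of replication genes ran from 11 to 17, of mitotic genes from 21 to 23, and of regulators stayed at 8. Among genes above the median level only, where fewer members were tested, 17 members rose, 8 of 16 replication, 6 of 6 mitotic and 3 of 7 regulator genes. The share of all tested genes that rose was also larger in that fit than the 12.9% found without the filter. The mitotic minus replication difference in mean change was 0.73 with the mean of all probe sets, 0.77 with probe sets free of possible cross-matches and 0.56 with log2(value + 16), whose scale damps dim genes. It was positive under all 22 alternatives. With the replicate number as a block 41 members rose, 11 replication and 22 mitotic genes, against 10.4% of all genes. In that fit 3762 genes changed in all, and Cdc6, Rrm1, Kif4 and Ccnd1 lost their calls. Same-numbered arrays share only a number: their deviations correlated from -0.020 to 0.0056, and 0 of 5 chow arrays correlated best with the high-fat array of the same number.

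Of the genes called, 49.6% were higher, but 64.8% with the values as deposited and 75.4% with array medians centred. There the median of all genes moved from -0.037 to 0.078 and 0.21. Under these scalings 14 and 15 replication genes and all 23 mitotic genes rose, against 15.1% and 24.3% of all genes. Signs turned only in 8 members that were not called. With the values as deposited Ccnd3 was at 0.039 and Cdk2 at 0.18; with array medians centred Mcm7 was at 0.12, Ccnd3 at 0.17, Cdk2 at 0.32 and Cdkn1a at 0.095; with array weights Mcm4 was at -0.081 and Mcm10 at -0.045. With the mean of all probe sets Tyms was at 0.0077 and Cdk2 at 0.26, with probe sets free of possible cross-matches Cdk2 at 0.55, and with log2(value + 16) Tyms at 0.011. Without chow arrays 1 and 2 Mcm4 was at -0.090 and Mcm10 at -0.23; without chow arrays 1, 2 and 3 Mcm4 was at -0.086, Mcm10 at -0.28 and Tyms at 0.019. With single arrays left out, Mcm4 ran from -0.093 to 0.074, Prim1 from -0.13 to 0.28, Tyms from -0.19 to 0.21 and Cdk2 from -0.19 to 0.067. The cause of these turns was not tested.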
